A study of Mus musculus with 24 samples.

Results

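Aldehyde dehydrogenases were examined in mouse embryos that had been cultured at 37 °C for 1 h with 40 µM 4-hydroperoxycyclophosphamide (4CP), a ready-activated form of the anticancer drug cyclophosphamide, or left without drug. They were taken as all probes whose platform annotation gives exactly 1 gene symbol made of Aldh and a digit. This gave 8 probes for 8 genes, among 15360 probes and 6970 named genes in all, and no probe with several symbols named an aldehyde dehydrogenase. Aldh1a1, Aldh1b1, Aldh2, Aldh3a2 and Aldh3b1 were read on the second of 2 array platforms and Aldh7a1, Aldh9a1 and Aldh16a1 on the first, each by a single probe. RefSeq lists 21 protein-coding genes with such symbols in the mouse, and the other 13, with Aldh3a1 and Aldh1a2 among them, were not analysed here.

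Treated and control RNA were hybridised together on 24 two-channel arrays, which form 12 slides with 2 array records each and 6 slide pairs, 3 per platform. In the second slide of a pair the channels were swapped. The control embryos shared the culture at 37 °C without any agent. Stage, strain, pooling of embryos and dye names were not given in the sources used here. Whether the 3 slide pairs of a platform came from separate cultures is not stated either, so p-values measure the spread between these slide pairs, which may be technical.

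Aldehyde dehydrogenases oxidise aldehydes to carboxylic acids with NAD+ or NADP+ as the electron acceptor. Activated cyclophosphamide exists in equilibrium with aldophosphamide, an aldehyde that breaks up into the DNA-alkylating phosphoramide mustard and acrolein, and oxidation to carboxyphosphamide by ALDH1A1 and ALDH3A1 disarms it. Of the genes measured here, Aldh1a1 is the one with that established role, and the other genes are known chiefly for other aldehydes. In embryos, Aldh1a1 belongs to the enzymes that make retinoic acid, a signal for patterning.

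The arrays carried clones and not designed sequences, so the starts of the genes are shown to place them in the genome. RefSeq promoter windows (GRCm38.p6, 250 bases before to 50 after the start) matched 6 of the 8 genes with 7 windows, and Aldh2 and Aldh7a1 were without an entry. The windows were searched on both strands for TGACNNNGC, the core of the antioxidant response element at which NRF2 answers electrophiles such as acrolein. The core stood in 1 of the 7 windows, that of Aldh9a1, against 12.4% of 32851 windows of the same length genome-wide. Shown are the 2 windows of Aldh1a1, the enzyme tied to the drug, and the window of Aldh9a1, where capitals mark the core, which begins 87 bases before the start site.
Aldh1a1, chr19:20492333-20492632, plus strand: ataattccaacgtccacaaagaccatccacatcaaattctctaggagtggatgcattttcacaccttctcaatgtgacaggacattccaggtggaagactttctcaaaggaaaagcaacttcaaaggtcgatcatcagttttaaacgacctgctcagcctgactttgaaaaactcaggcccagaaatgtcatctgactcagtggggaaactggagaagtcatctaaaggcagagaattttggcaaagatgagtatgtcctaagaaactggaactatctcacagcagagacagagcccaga
Aldh1a1, chr19:20601718-20602017, plus strand: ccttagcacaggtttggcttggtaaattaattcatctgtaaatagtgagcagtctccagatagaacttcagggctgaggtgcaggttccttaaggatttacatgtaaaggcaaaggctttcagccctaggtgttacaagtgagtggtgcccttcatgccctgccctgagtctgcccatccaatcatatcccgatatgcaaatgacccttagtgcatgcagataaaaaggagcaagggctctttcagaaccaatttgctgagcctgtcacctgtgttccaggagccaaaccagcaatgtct
Aldh9a1, chr1:167349741-167350040, plus strand: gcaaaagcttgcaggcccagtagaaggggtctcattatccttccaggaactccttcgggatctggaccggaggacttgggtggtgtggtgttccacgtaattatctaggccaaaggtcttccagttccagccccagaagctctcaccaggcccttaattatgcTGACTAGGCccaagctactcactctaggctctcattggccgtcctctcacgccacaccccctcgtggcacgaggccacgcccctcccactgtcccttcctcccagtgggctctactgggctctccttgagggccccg
The core of the xenobiotic response element, GCGTG, was found on either strand in 2 of the 7 windows, those of Aldh9a1 and Aldh3a2, against 32.4% of all windows. TATAAA was found on the gene strand in 0 of the 7, against 8.32% of all windows. These matches describe letters and were not tied to any binding in these embryos.

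Each deposited value is a log ratio between channels. Its base is not stated, and because values reach 7.71, beyond the 4.82 that a base of 10 allows for 16-bit scans, base 2 or e was assumed. That limit holds only where both channel values are at least 1, which is not known here. Base 10 is thus not excluded, and fold values below hold for base 2 or e only. Each array was centred on its median, the records of a slide were averaged, and the treatment effect of a pair was taken by subtracting the swapped slide from its partner, where treated RNA was in channel 1, and dividing by 2. Positive effects mean higher RNA with 4CP provided that channel 1 was the numerator and that no swapped slide was turned before deposit, neither of which the labels state. A ratio carries no level, so neither the abundance of these transcripts nor the presence of a cell type by its markers could be read from it. Markers are given by their treatment effect alone, and fewer cells of a type cannot be told apart from less RNA per cell. Spot intensities did not enter these values, and how far each probe stood above background is unknown. Across all probes, slide pairs of a platform correlated weakly in their effects, with Pearson's r from -0.144 to 0.150.

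None of the 8 aldehyde dehydrogenase transcripts changed detectably after 1 h of 4CP. The mean effects ran from -0.0109 for Aldh7a1 to 0.0344 for Aldh16a1, with 6 of 8 positive, where 46.2% of all first-table and 48.4% of all second-table probes were positive. With limma, 0 of 8 passed an adjusted p of 0.05 (adjusted p from 0.997 to 1.00), and 0 of 8 had an unadjusted p under 0.05. Over all probes 0% passed in each table, and 2.34% of the first and 5.22% of the second table had an unadjusted p under 0.05, so the absence of calls does not set these genes apart. All 8 absolute effects were below the median absolute effect of their table, which was 0.0354 in the first and 0.0234 in the second. None had the same sign in all 3 pairs, 0 of 8, against 22.6% of all first-table and 24.5% of all second-table probes.

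The 95% intervals from limma show how large a change these slide pairs left room for. Over the 8 genes they reached from -0.119 to 0.145, so that under the turned reading a change of more than 1.11-fold in base 2, or 1.16-fold in base e, lay outside every interval. An interval takes in spread between slide pairs and no other source of error. limma draws the variance of each probe towards that of all probes of its table, so its width does not rest on its own 3 pairs alone. Aldh2, with an SD of 0.0745, had a standard error of 0.0356, and Aldh9a1, with an SD of 0.0295, had 0.0470. Compression of ratios on the arrays was not measured.

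**Figure D1:**
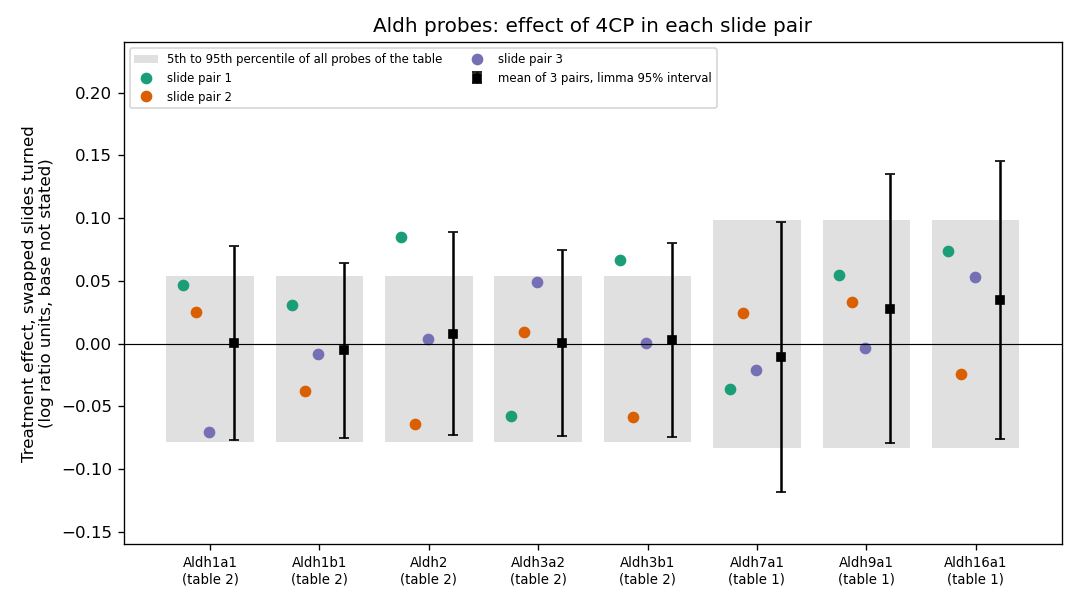
Treatment effect (log ratio units, vertical axis) of each aldehyde dehydrogenase probe (horizontal axis) in slide pairs 1, 2 and 3 (circles), with the mean and its limma 95% interval (squares) over the 5th to 95th percentile of all probes of the same table (grey). Every interval crosses 0, and the means run from -0.0109 to 0.0344.

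Aldh1a1, the cytosolic enzyme that oxidises both aldophosphamide and retinaldehyde, had effects of 0.0471 in pair 1, 0.0248 in pair 2 and -0.0707 in pair 3. The first 2 pairs were positive and the third negative, and the mean was 0.000393 ± 0.0626 (SD, n = 3 slide pairs). Its 95% interval was -0.0766 to 0.0774, which is at most 1.06-fold upward in base 2 and 1.08-fold in base e (limma adjusted p = 1.00). In pair 3 the first records of the slides gave -0.167 and the B records, the further record of each slide, 0.0252. In pair 1 they gave 0.0935 and 0.000652, so in both pairs the records differed in size, and in pair 3 also in sign. Mouse Aldh1a7 is a close copy of Aldh1a1, and a clone may hybridise with both.

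The mitochondrial enzymes Aldh2 and Aldh1b1 are both known for oxidising acetaldehyde, and Aldh2 also clears aldehydes from lipid peroxidation. Aldh2 had 0.0846, -0.0642 and 0.00379 in pairs 1, 2 and 3, with a mean of 0.00804 ± 0.0745 (SD, n = 3). Its pair-to-pair SD was the highest of the 8 and lay at the 76.3 percentile of its table. Aldh1b1 had 0.0304, -0.0381 and -0.00844, with a mean of -0.00537 ± 0.0344. Both were positive in pair 1 and negative in pair 2, and both intervals crossed 0, at -0.0731 to 0.0892 for Aldh2 and -0.0749 to 0.0641 for Aldh1b1.

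Aldh3a2 and Aldh3b1 act on fatty and other lipid-derived aldehydes at membranes. Aldh3a2 had -0.0576, 0.00959 and 0.0492 in pairs 1, 2 and 3 and was the only second-table member negative in pair 1. Its mean was 0.000372 ± 0.0540 (SD, n = 3), with an interval of -0.0740 to 0.0747. Aldh3b1 had 0.0664, -0.0582 and 0.000512, with a mean of 0.00288 ± 0.0623 and an interval of -0.0740 to 0.0798. The closely related Aldh3b2 and Aldh3b3 may share its hybridisation.

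The remaining 3 genes were read on the first platform. Aldh7a1, which oxidises the semialdehyde formed in lysine breakdown, had -0.0362, 0.0247 and -0.0213 in pairs 1, 2 and 3. Its mean was -0.0109 ± 0.0318 (SD, n = 3), the lowest of the family, with an interval of -0.119 to 0.0967. Aldh9a1, which makes the precursor of carnitine, had 0.0544, 0.0333 and -0.00379, with a mean of 0.0280 ± 0.0295 and an interval of -0.0794 to 0.135. Aldh16a1, an atypical member that in mammals lacks the catalytic cysteine, had 0.0740, -0.0239 and 0.0532, with a mean of 0.0344 ± 0.0516 and an interval of -0.0763 to 0.145. It had the highest mean of the family, at the 48.9 percentile of absolute effects in its table.

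In order of the mean effect the genes stood as Aldh7a1, Aldh1b1, Aldh3a2, Aldh1a1, Aldh3b1, Aldh2, Aldh9a1 and Aldh16a1. Neighbours in this order differed by less than their SDs over slide pairs, and genes of different tables were normalised apart. The median over the 3 first-table genes was 0.0280, against -0.00465 over all probes, and over the 5 second-table genes 0.000393, against -0.00148. By pair, the median of the 5 second-table genes took values of 0.0471, -0.0381 and 0.000512, so the pairs did not share a sign. The first-table genes had medians of 0.0544, 0.0247 and -0.00379.

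The slides themselves often showed larger values than the turned effect of their pair, which is their difference divided by 2. Aldh9a1 lay at -0.598 on the slide of pair 3 with treated RNA in channel 1 and at -0.591 on the swapped slide. Aldh3b1 lay at -0.327 and -0.211 on the slides of pair 2, and Aldh1a1 at 0.350 and 0.256 on those of pair 1. Not every slide did so. Aldh3a2 lay at -0.0131 on the pair 1 slide with treated RNA in channel 1, against a turned effect of -0.0576. In ratios that were not turned, a treatment difference larger than a probe's dye effect would put the slides of a pair on opposite sides, and a smaller one would leave them on the same side. In 21 of 24 combinations of gene and pair both slides lay on the same side of the array median, which is 87.5%, against 81.5% for all first-table and 88.0% for all second-table probes. The 3 exceptions were Aldh7a1 in pair 1, with -0.0169 and 0.0556, Aldh3a2 in pair 1, with -0.0131 and 0.102, and Aldh1a1 in pair 2, with 0.0476 and -0.00209.

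**Figure D2:**
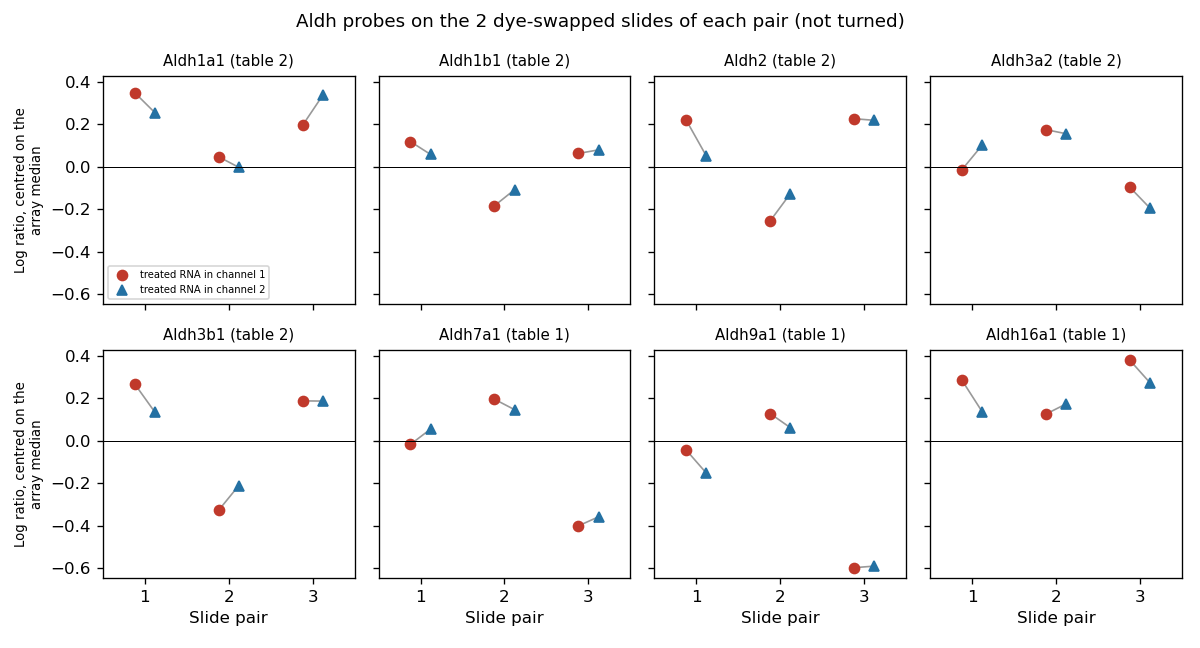
Log ratio centred on the array median (vertical axis) on the slide with treated RNA in channel 1 (circles) and on its channel-swapped partner (triangles), by slide pair (horizontal axis), 1 panel per gene, each point the mean of 2 records. Both slides of a pair lie on the same side of 0 in 21 of 24 cases, with Aldh9a1 in pair 3 at -0.598 and -0.591 as the lowest.

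On single arrays the 2 orientations overlapped for every gene. Aldh1a1 ranged over 6 arrays with treated RNA in channel 1 from -0.0647 to 0.372 (median 0.244), and over the 6 with it in channel 2 from -0.0770 to 0.398 (median 0.231). Aldh2 ranged from -0.375 to 0.289 (median 0.163) and from -0.210 to 0.231 (median 0.0843). Aldh3a2, lower when treated RNA was in channel 1 by its medians of -0.0131 and 0.102, spanned -0.153 to 0.198 and -0.204 to 0.202. Aldh1b1 spanned -0.236 to 0.158 and -0.141 to 0.101, with medians of 0.0629 and 0.0451.

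Aldh1b1 was negative on the 4 arrays of pair 2 and positive on the other 8. In none of the 16 groups of 6 arrays, 1 per gene and orientation, did a single array stand apart by Dixon's test (0 of 16). Each group holds 2 records of every slide, so a slide that stands apart gives 2 such values. A test for a single array can miss these.

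Aldh9a1 spanned -0.724 to 0.161 with treated RNA in channel 1 and -0.755 to 0.143 in channel 2, with both minima in pair 3. Aldh3b1 spanned -0.465 to 0.284 and -0.251 to 0.221, with both minima in pair 2. Aldh7a1 spanned -0.431 to 0.256 and -0.390 to 0.162, also lowest in pair 3. Aldh16a1 spanned -0.0655 to 0.490 and 0.0416 to 0.452, and lay above the array median on all but 1 of its 12 arrays.

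If swapped slides had been turned before deposit, the treatment effect would be the mean of the 2 slides and not their difference. Read in that way, Aldh16a1 had 0.211, 0.150 and 0.326 in pairs 1, 2 and 3, with a mean of 0.229 ± 0.0895 (SD, n = 3). Aldh1a1 had 0.303, 0.0228 and 0.267, with a mean of 0.198 ± 0.152. These 2 genes were positive in all 3 pairs, against 17.4% of first-table and 18.5% of second-table probes. They were also the 2 of 8 with 1 sign throughout, against 35.5% and 36.4% of all probes. Aldh9a1 had -0.0979, 0.0953 and -0.594, with a mean of -0.199 ± 0.356, so that its sign differed from the turned reading and between pairs. The means of the others were 0.0562 for Aldh2, 0.0403 for Aldh3b1, 0.0216 for Aldh3a2, 0.00509 for Aldh1b1 and -0.0629 for Aldh7a1.

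No aldehyde dehydrogenase passed under this reading either, 0 of 8 (limma adjusted p from 0.532 to 0.994, and 0 with an unadjusted p under 0.05), where 2.85% of first-table and 0% of second-table probes did. The intervals were wider, reaching from -0.635 to 0.653, so changes of up to 1.57-fold in base 2 or 1.92-fold in base e lay within at least 1 of them. A dye effect of a probe cancels in the difference of swapped slides and stays in their mean, and the 2 cannot be told apart in this reading. Across all probes the means of swapped slides correlated between pairs with Pearson's r from 0.0987 to 0.875.

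**Figure D3:**
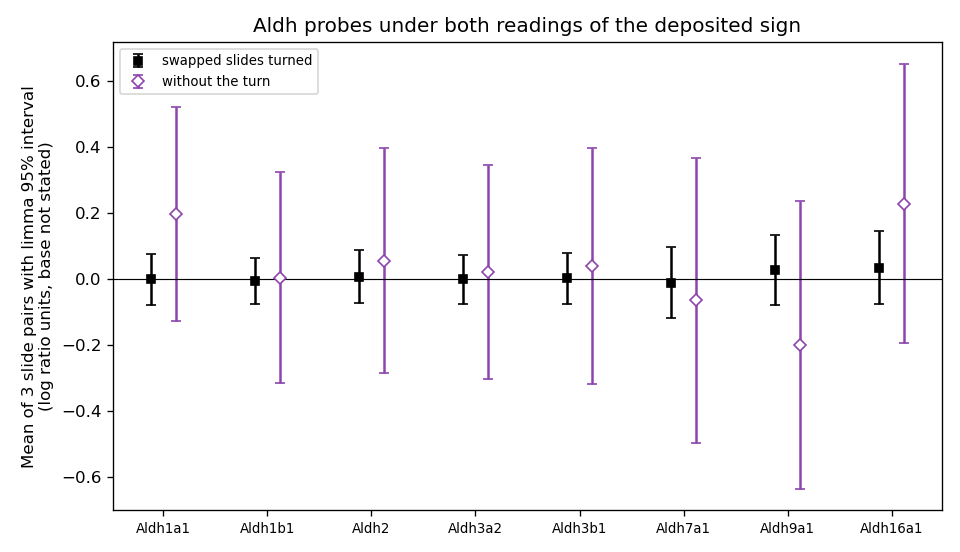
Mean over 3 slide pairs with the limma 95% interval (log ratio units, vertical axis) for each gene (horizontal axis), with swapped slides turned (filled squares) and without the turn (open diamonds). All intervals cross 0, and those without the turn reach from -0.635 to 0.653.

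The 2 records of a slide gave another view of measurement error. Treatment effects from first records and from B records shared a sign in 14 of 24 combinations of gene and pair (58.3%), against 70.6% for all first-table and 59.4% for all second-table probes. Aldh7a1 had the same sign in both records of every pair, with -0.0384 and -0.0341 in pair 1, 0.0474 and 0.00209 in pair 2, and -0.0220 and -0.0206 in pair 3. Aldh3b1 in pair 2 gave -0.147 from the first records and 0.0309 from the B records, a gap larger than its mean effect. The largest effect of any record and pair among the 8 genes was that of Aldh1a1 in pair 3, at -0.167.

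Over the 12 centred arrays of a table, Aldh1b1 and Aldh3b1 ran closely together (Pearson's r = 0.985), as did Aldh7a1 and Aldh9a1 (r = 0.942). Aldh3a2 ran against the other 4 second-table genes, with r from -0.758 to -0.594, and Aldh16a1 against Aldh7a1 (r = -0.500) and Aldh9a1 (r = -0.576). Among other named genes, the 3 closest to Aldh1a1 were Dnase2a (r = 0.933), Tbc1d14 (r = 0.919) and Mllt3 (r = 0.915). Closest to Aldh2 were Spag9 (0.931), Mta3 (0.928) and Sycp2 (0.927), and to Aldh3a2 Rcbtb2 (0.962), Tle5 (0.958) and Clptm1l (0.957). Mid1ip1 was closest both to Aldh3b1 (r = 0.966), before Pdzd2 (0.959) and Napg (0.958), and to Aldh1b1 (r = 0.954), before Adamts19 (0.952) and Ttc41 (0.946). On the first platform, Wwtr1 (0.993), Rars (0.992) and Ctsb (0.991) were closest to Aldh9a1, and Rsu1 (0.991), Pisd (0.989) and Ift74 (0.988) to Aldh7a1. Stard10 (0.953), Lmo7 (0.939) and Gatad2a (0.934) were closest to Aldh16a1. These correlations describe arrays that share dyes, slides and RNA and are given without a test. Swapped slides were not turned here, so differences between slide pairs enter r. The closest genes were the highest of 4746 first-table or 4930 second-table probes, and a typical r between probes was not computed.

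Other enzymes that handle the drug's products or the same substrates were read from 6 lists of neighbouring pathways. Of 69 probes for 46 genes, none passed, 0 called by limma at a smallest adjusted p of 0.949. Unadjusted, 3 of 34 first-table and 0 of 35 second-table probes lay under 0.05, against 2.34% and 5.22% of all probes. Among other aldehyde and carbonyl enzymes, 8 of 12 probes were positive, against 46.2% of all first-table and 48.4% of all second-table probes. The list had medians of 0.0513 over 6 first-table and 0.00309 over 6 second-table probes. Without the turn these medians were -0.360 and -0.146, opposite in sign. Esd, an esterase that frees glutathione after formaldehyde oxidation, gave 0.115, 0.0540 and 0.159 in pairs 1, 2 and 3, with a mean of 0.109 ± 0.0529 (SD, n = 3), and a mean of -0.344 without the turn. Xdh, xanthine dehydrogenase, had -0.0844 ± 0.124, and Cbr3, a carbonyl reductase, had -0.0430 ± 0.0741. Akr1a1, an aldehyde reductase, had 0.0514 ± 0.101 on the first and 0.0383 ± 0.0248 and -0.00254 ± 0.0332 on the second platform.

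Glutathione enzymes, which take up acrolein and mustards, had 11 of 19 probes positive, against 46.2% of all first-table and 48.4% of all second-table probes. Their medians were 0.00696 over 5 first-table and 0.0156 over 14 second-table probes, or -0.0846 and -0.129 without the turn. Gstm7 had 0.0646 ± 0.0464 (SD, n = 3) and was positive in every pair. Gsta4, a transferase for lipid aldehydes, had -0.0612 ± 0.0301 and was negative in every pair. Both were picked for the lowest p on their side of 0. Of the 14 second-table probes of the list, 4 had the same sign in all pairs, against 24.5% of all probes. Gstp1 had 0.0456 ± 0.0977. Gclc, the rate-limiting enzyme of glutathione synthesis, had -0.0441 ± 0.132 and -0.0109 ± 0.0442 on its 2 first-table probes. None of these passed, and several Gstm genes are near-identical copies, whose clones may share hybridisation.

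The retinoid list, to which Aldh1a1 is linked by its product, had 2 of 7 probes positive. Over all probes the share was 46.2% in the first and 48.4% in the second table. The list had medians of 0.00765 over 2 first-table and -0.00334 over 5 second-table probes, or 0.0965 and -0.0318 without the turn. Stra6, a retinol uptake receptor, had -0.0790 ± 0.110 (SD, n = 3) with -0.198, -0.0579 and 0.0189. Rdh10, which supplies the retinaldehyde that Aldh1a enzymes oxidise, had 0.0277 ± 0.0860 on the first and -0.0287 ± 0.0776 on the second platform, and Dhrs3, which reduces retinaldehyde back to retinol, had 0.00866 ± 0.0172. Rdh11, another retinal reductase, had -0.0124 ± 0.0519 on the first and -0.00219 ± 0.0314 on the second platform. Partner enzymes of the members' own pathways had 5 of 9 probes positive, near the same shares of all probes. Their medians were 0.0201 and -0.00575, or -0.194 in each table without the turn. Acsl4, a fatty acyl-CoA synthetase, had -0.0909 ± 0.125 on the first and 0.0439 ± 0.0225 on the second platform. Shmt1, of serine and glycine metabolism, had 0.0640 ± 0.0592 and, on a further first-table probe, 0.0201 ± 0.00358. Hadh, of fatty acid oxidation, had -0.0581 ± 0.0631. Cyp2c23 was the 1 probe of the cytochrome list, at -0.0237 ± 0.0763.

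The NRF2 and electrophile response list lay higher than the aldehyde dehydrogenases on the first platform, with 14 of 16 probes positive, against 46.2% of all first-table probes, and a median of 0.102 under the turned reading. Its probes cover 9 genes, and 5 of the 16 are for Ftl1, ferritin light chain. All 3 probes of the 69 with an unadjusted p under 0.05 belong to it, those of Nfe2l2, Mt1 and 1 of Ftl1, and none passed the adjusted threshold. Nfe2l2, which encodes NRF2, had 0.186 ± 0.155 (SD, n = 3) on the first and 0.0430 ± 0.0230 on the second platform. The probes of Me1, malic enzyme, differed in sign on both platforms, with -0.0359 ± 0.0497 and 0.0514 ± 0.105 on the first and -0.0538 ± 0.0544 and 0.0173 ± 0.0387 on the second. The list had medians of 0.193, 0.0930 and -0.000475 in pairs 1, 2 and 3, and its median effect was -0.451 without the turn, opposite in sign. In the second table the list had 3 of 5 probes positive, against 48.4% of all probes, with a median of 0.0173, or -0.268 without the turn. Without the turn, both first-table probes of Prdx1, a peroxiredoxin named here after its values were seen, passed. They had -0.899 and -0.869 (limma adjusted p = 0.0282 and 0.0354), where their turned effects were 0.102 and 0.0948. Of all first-table probes 2.85% passed in the same way, and without the turn a dye effect of a probe stays in the mean. Whether the list differs from the aldehyde dehydrogenases was not tested.

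**Figure D4:**
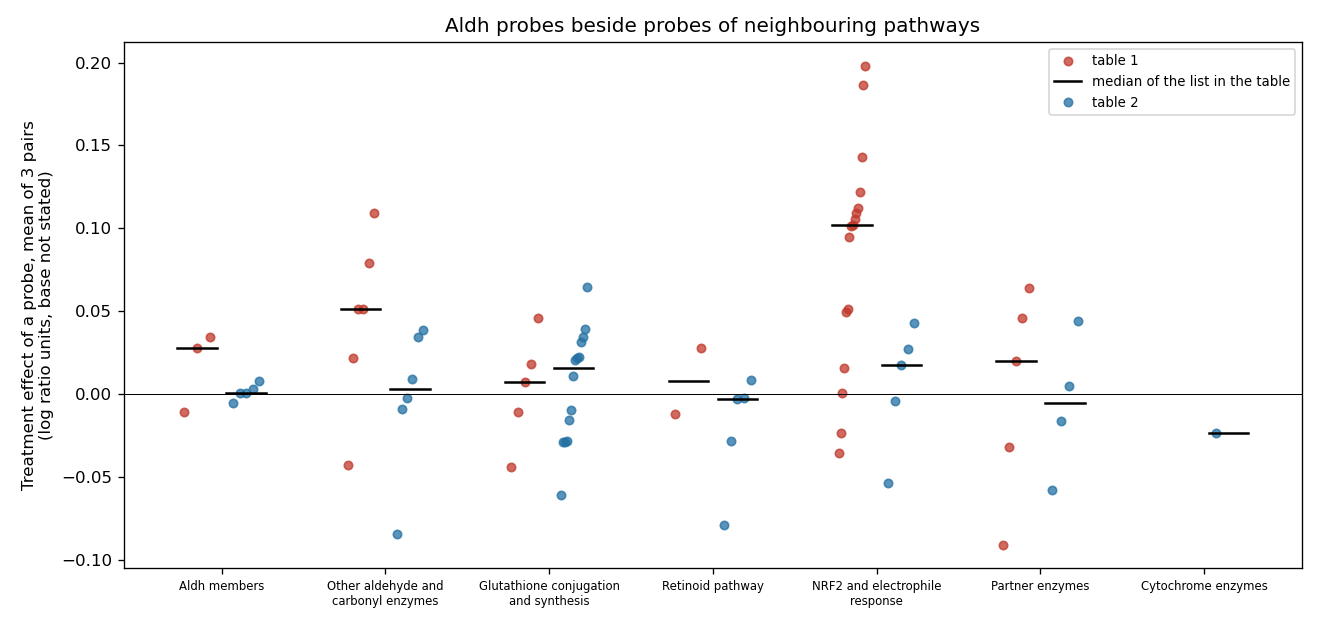
Treatment effect of single probes (mean of 3 slide pairs, log ratio units, vertical axis) for the aldehyde dehydrogenases and for lists of neighbouring pathways (horizontal axis), by table, with the median of each list as a bar. The aldehyde dehydrogenases lie between -0.0109 and 0.0344, and the first-table NRF2 list has a median of 0.102.

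Markers of cell types that embryos and their membranes hold had 0 of 21 probes past the threshold with limma, against 0% of all probes in each table. Unadjusted, 0 of 14 first-table and 1 of 7 second-table probes, that of Hba-x, lay under 0.05, against 2.34% and 5.22% of all probes. Visceral endoderm and yolk sac markers had a median of -0.0234 over 6 first-table probes, from Apob at -0.0589 to Lgmn at 0.0395. Trophoblast and decidua markers had -0.0122 over 5, from Cts7 at -0.0433 to Prl8a2 at 0.174 ± 0.390 (SD, n = 3). Without the turn these medians were 0.120 and 0.0565, opposite in sign. Positive were 2 of the 6 and 2 of the 5 probes, against 46.2% of all first-table probes. Apoc2, the 1 second-table yolk sac probe, had 0.0167. Primitive erythroid markers had 0 of 7 probes positive, against 46.2% of all first-table and 48.4% of all second-table probes. Their median was -0.0557 over 6 second-table probes, which was -0.738 without the turn. These 6 probes cover 3 genes, and most of them are for Hbb-y, from -0.0663 to -0.0418, so the count is not of separate transcripts. Hba-x, an embryonic globin, had -0.0877 ± 0.0531 (SD, n = 3), and -1.12 without the turn. Only 2 probes of neural tube markers, both positive with a median of 0.0368, and 0 of cardiac markers were found. Their part in the effects of the aldehyde dehydrogenases was not tested.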

How the data were processed

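RNA of 4CP-treated and control mouse embryos was compared on 24 two-channel arrays in 2 deposited tables of 7680 probes and 12 arrays each. The authors' deposited values are log ratios, as judged from the values, and their base, numerator and normalization were not stated in any source used. The median of an array lay between -0.305 and 1.12 in the first table and between 0.272 and 2.10 in the second, with no missing value. Arrays were grouped by the channel that holds treated RNA and by the pair number in the titles.

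Arrays were centred on their medians, and the mean of 3 pair effects was tested against 0 over all probes of a table with limma 3.58.1 (lmFit, eBayes) in R 4.3.3 and Benjamini-Hochberg adjustment at 0.05, with no filter. The script was tested on simulated data with effects far larger than those of the members, so recovery of small effects was not tested. Of the probes, 9684 had 1 symbol, 502 several and 5174 none, and 9596 of the first were updated by gene identifier through RefSeq (GRCm38.p6). Members and lists were chosen with earlier results of these data known. Genes named are the members, the lowest limma p on each side of 0 in each list and table, and the 3 named genes most correlated with each member over 12 arrays. Mt1, Ftl1, Prdx1, Hbb-y and further probes of genes named by this rule were chosen after their values were seen. Some genes that the rule names among the marker lists are not printed. Image software is not given in the sources used here. Alternatives changed the centring, scaling, quantile normalization, position, turn, orientation, records, block, slide pairs and limma settings.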

Additional observations from a re-analysis of the deposited data

How the results depend on the processing

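Under 16 other settings, 0 aldehyde dehydrogenase probes passed in any (lowest limma adjusted p = 0.178, for Aldh7a1 with values as deposited). Of 128 gene effects, 30 changed sign, none of them called. Gene means over both tables, trended robust limma and the slide fits with and without a replicate block could not move an effect. Each of these had 0 of 8 sign changes by construction. Over all 7680 probes of a table, calls numbered 668 (8.70%) with channel 2 alone, 174 (2.27%) with channel 1 alone, 33 (0.430%) as deposited and 219 (2.85%) without the turn for first-table probes. The second table had 1 call as deposited and 0 under those other settings. Leaving out pair 1, 2 or 3 gave 24, 30 and 24 in the first and 40, 58 and 0 in the second, and the other settings gave 0. The count was 0 in both tables with slides fitted under a replicate block by pair number, where every effect equalled the reported one, and 0 without that block. With the block, the adjusted p-values of the members also equalled the reported ones. That fit is the main fit in another form and no separate check. Same-numbered slides are swapped partners by their titles, which is where the pairing comes from. With values as deposited, where the median of all probes was -0.128 in the first and -0.0543 in the second table, the medians of the members moved to -0.0959 and -0.0524, with Aldh16a1 at -0.0894, Aldh9a1 at -0.0959, Aldh1a1 at -0.0524, Aldh2 at -0.0448, Aldh3a2 at -0.0525 and Aldh3b1 at -0.0499. Without the turn the first-table median was -0.0629, Aldh9a1 had -0.199 and Aldh1b1 0.00509. Treated RNA in channel 1 alone gave medians of -0.0738 and 0.0432 and Aldh9a1 at -0.171, and channel 2 alone gave Aldh16a1 -0.195, Aldh7a1 0.0519, Aldh1a1 -0.197, Aldh2 -0.0481, Aldh3a2 -0.0212 and Aldh3b1 -0.0374. First records alone gave Aldh1a1 -0.00989, Aldh2 -0.0176, Aldh3a2 -0.00820 and Aldh3b1 -0.0274. Aldh3a2 had -0.0108 with scaled arrays and -0.0146 under quantile normalization, and Aldh1a1 -0.000521 with runs of 240 probes centred. Leaving out each slide pair gave -0.0229 to 0.0360 for Aldh1a1, -0.0233 to 0.0110 for Aldh1b1, -0.0302 to 0.0442 for Aldh2, -0.0240 to 0.0294 for Aldh3a2, -0.0289 to 0.0334 for Aldh3b1 and -0.0288 to 0.00170 for Aldh7a1. The cause of these sign changes was not tested. Signal over background is unknown, and 3 slide pairs per table limit the precision.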
